A study of Macaca mulatta with 45 samples.

Results

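The genes described here code for the proteins of synaptic vesicles and of the machinery that fuses vesicles with membranes. They were chosen by symbol from the deposited count table: the synaptotagmins (SYT), syntaxins (STX), syntaxin-binding proteins (STXBP), VAMP, SNAP, synapsin (SYN), SV2, complexin (CPLX), UNC13, RIMS, RAB3 and synaptogyrin (SYNGR) genes and synaptophysin (SYP), with SNAP25 left out. Of 30246 gene IDs in the table, 61 met that rule. They comprised 14 genes of vesicle membrane proteins, 15 synaptotagmins, 8 neuronal SNAREs and release regulators, 23 genes of general, endosomal or immune-cell fusion, and SNAP91, which codes for a clathrin adaptor and shares only its name with the SNAP genes. VAMP2, CPLX2 and VAMP5 matched no row by symbol and were not analysed here, so the families are not complete.

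Total RNA was sequenced from 3 brain regions of 15 rhesus macaques, with 1 library per animal and region. The regions were the prefrontal cortex of Brodmann area 46, the hippocampus and the white matter of the centrum semiovale. The 5 control animals had been irradiated at the thorax only, with 10 Gy, and carry a labelled brain dose of 0.1 Gy. The 5 animals called fWBI had received fractionated whole-brain irradiation, 40 Gy in 8 fractions of 5 Gy, with necropsy 12 months later. The 5 animals called TBI had received total body irradiation as 1 dose, labelled 6.75, 7.2 or 8.05 Gy, with necropsy 6 to 9 years later. The control is therefore itself an irradiated animal, and the dose, the field and the time since exposure all differ between fWBI and TBI. No ages are given in the labels.

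A synaptic vesicle is filled with transmitter, docked at the active zone by RIM and RAB3 proteins, and primed by UNC13 proteins together with a syntaxin-binding protein. Fusion is driven by the zippering of a vesicle SNARE with syntaxin and SNAP proteins on the plasma membrane, held ready by complexin and triggered when a synaptotagmin binds calcium. The same families serve other membranes: other syntaxins and VAMPs act at endosomes and the Golgi, and STX11, STXBP2 and UNC13D release the granules of cytotoxic lymphocytes and other blood-derived cells. White matter holds axons but few neuronal cell bodies, and most messenger RNA of neurons lies in cell bodies. In homogenised tissue, fewer cells of a type and less RNA per cell cannot be told apart.

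Library totals ran from 6625435 to 12541507 counts, and no pair of libraries of a group agreed within sampling noise. The labelled regions carried their markers: the mean log2 CPM (counts scaled to library size) of 5 hippocampal genes was 5.50 to 6.40 in hippocampus and 4.17 to 4.59 in prefrontal cortex, and that of 6 myelin genes was 10.18 to 11.31 in white matter and at most 8.32 elsewhere. Control white matter libraries 1 and 3 stood apart from the other white matter libraries. The mean log2 CPM of 12 pan-neuronal markers was 8.22 and 7.18 in these 2, against 4.75 to 5.07 in control animals 2, 4 and 5, 4.60 to 5.31 in TBI animals and 4.55 to 5.39 in fWBI animals. Myelin markers were at 10.18 and 10.81 in the same 2 libraries and at 11.18 to 11.31 in the other 3. Counts of called members in white matter comparisons with control are therefore given with and without libraries 1 and 3.

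Many vesicle genes showed that split, as did many other genes. Of 36 members lower in white matter than in prefrontal cortex of TBI animals, 30 were higher in both control white matter libraries 1 and 3 than in any of the other 3 control libraries; of all genes lower there 61.4% were. SYT1, the main calcium sensor of fast release, was at 2562 and 1087 CPM in control animals 1 and 3 and at 101, 206 and 122 CPM in animals 2, 4 and 5. SV2B, a vesicle membrane glycoprotein named here after its values were seen, stood at 754 and 318 CPM in animals 1 and 3 and at 20.0, 37.3 and 23.7 CPM in the others. SYN1, a synapsin that tethers vesicles to one another, was at 94.4 and 58.6 CPM against 7.45, 11.3 and 8.86 CPM. For each of these genes the pair of libraries lay far above the rest of the control group, and above every irradiated white matter library. Members that are rich in white matter went the other way in part: 7 of the 16 that were higher there in TBI animals, SYNGR2 among them, were lower in both libraries than in the other 3, as were 52.1% of all genes higher there.

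**Figure D1:**
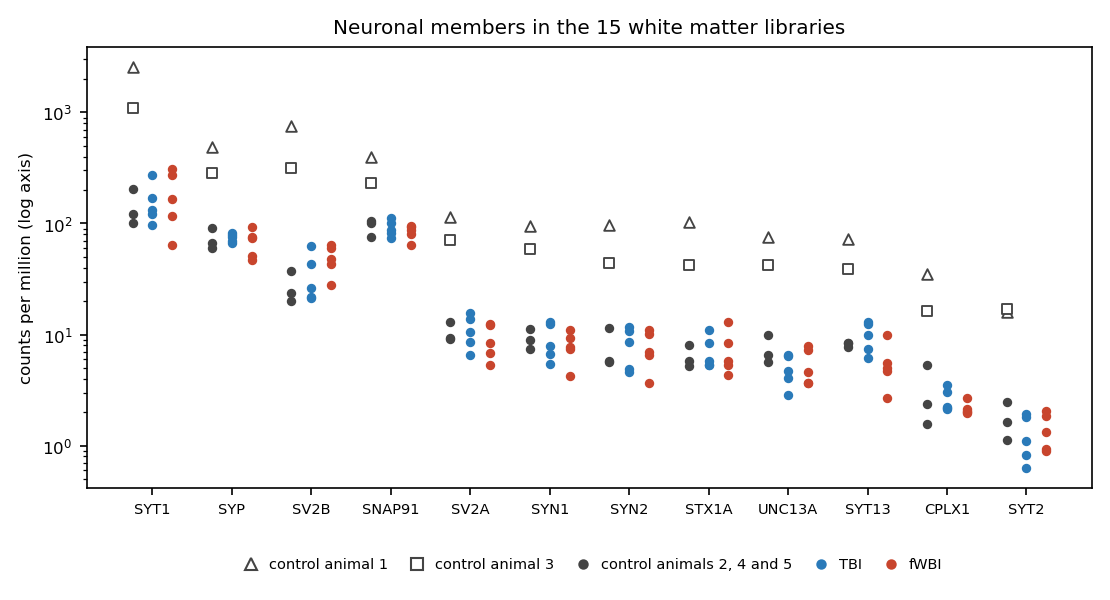
CPM (log axis) of 12 neuronal members in the 15 white matter libraries, 1 point per library. Control animal 1 is a triangle and control animal 3 a square; in each gene shown they lie above the other 13 libraries, as in SYT1 with 2562 and 1087 CPM, while control animals 2, 4 and 5 overlap the TBI and fWBI animals.

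The first question was what fractionated whole-brain irradiation changed in white matter. Of 23 genes of general, endosomal or immune-cell fusion 5 rose and 18 were not called, with a median log2 fold change of 0.05: STX11 rose 7.62-fold, STXBP2 5.34-fold, VAMP8 3.11-fold, UNC13D 2.35-fold and SNAP29 1.26-fold. Without control libraries 1 and 3, described above, STX11, STXBP2 and VAMP8 remained. The release regulator UNC13B rose 1.96-fold, and the active zone scaffolds RIMS1 and RIMS2 fell. In all, 58 members passed the filter on low counts, 6 rose and 16 fell by edgeR's quasi-likelihood test at a Benjamini-Hochberg adjusted p under 0.05. Of all genes tested 16.7% were called, 8.8% higher and 7.86% lower. In 5 members (STX11, STXBP2, VAMP8, RIMS1, RIMS2) no fWBI library overlapped a control library, against 10.3% of all genes. Without control libraries 1 and 3, 4 rose and 2 fell, against 10.8% of all genes (7.23% higher, 3.54% lower), and these 6 (STX11, STXBP2, VAMP8, UNC13B, RIMS1, RIMS2) were all among the 22. The median log2 fold change of the members was -0.41 with all control libraries and -0.05 without these 2, where the medians of all genes were -0.03 and -0.01. The count of 22 was 8 without control animal 1, 11 without control animal 3, and 14, 11, 12 and 14 without fWBI animals 1, 2, 3 and 4.

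STX11, a syntaxin of cytotoxic granules that lacks a membrane anchor of the usual kind, was measured at 0.658, 0.556, 1.10, 2.58 and 0.864 CPM in the 5 control white matter libraries. The fWBI libraries held 5.53, 14.4, 8.52, 11.5 and 3.64 CPM, and the TBI libraries 1.29, 1.89, 2.40, 1.40 and 2.55 CPM. All fWBI animals lay above all control and TBI animals, while TBI and control animals overlapped because of control animal 4. The log2 fold change of fWBI against control was 2.93 ± 0.44 (SE, n = 5 per group, edgeR adjusted p = 0.000262), and 2.74 ± 0.53 (adjusted p = 0.0035) without control libraries 1 and 3. STX11 passed the filter on low counts in white matter only, so its rise was tested where it was high. In hippocampus and prefrontal cortex no group exceeded 1.62 CPM in any library.

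STXBP2, the syntaxin-binding protein that partners STX11, separated the 3 treatments completely in white matter. It was at 1.75, 2.56, 1.79, 1.72 and 1.84 CPM in control animals, at 4.59, 4.53, 4.07, 4.58 and 3.72 CPM in TBI animals, and at 7.96, 16.3, 8.92, 13.4 and 5.17 CPM in fWBI animals. Every TBI library lay above every control library, and every fWBI library above every TBI library. The log2 fold change was 2.42 ± 0.27 for fWBI against control (adjusted p = 2.63e-05; 2.35 ± 0.35 and 0.000524 without control libraries 1 and 3) and 1.27 ± 0.26 for fWBI against TBI (adjusted p = 0.00565). For TBI against control it was 1.14 ± 0.28, which did not pass (adjusted p = 0.13).

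VAMP8, a vesicle SNARE of late endosomes and secretory granules, was at 3.29, 5.00, 4.48, 4.17 and 6.16 CPM in control, 6.70, 6.67, 7.30, 8.90 and 8.82 CPM in TBI, and 13.2, 18.6, 15.2, 18.1 and 6.78 CPM in fWBI white matter. All irradiated animals lay above all control animals, and fWBI animal 5 lay among the TBI animals. Its log2 fold change was 1.64 ± 0.24 for fWBI against control (adjusted p = 0.000252, and 0.00315 without control libraries 1 and 3) and 0.91 ± 0.24 against TBI (adjusted p = 0.0266). The call against TBI was lost, with adjusted p from 0.0568 to 0.0827, when any of TBI animals 1, 2 and 3 or fWBI animals 2, 3 and 4 was left out.

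UNC13D, which primes granules in cytotoxic lymphocytes, was at 1.10, 3.67, 2.49, 2.33 and 4.10 CPM in control and at 5.25, 6.78, 7.91, 8.45 and 3.81 CPM in fWBI white matter. The groups touched, since fWBI animal 5 was below control animal 5. Its rise of 1.23 ± 0.37 (adjusted p = 0.0309) became 0.94 (adjusted p = 0.144) without control libraries 1 and 3. It also lost the call without control animal 1, 3 or 4 or fWBI animal 2, 3 or 4, with adjusted p from 0.0566 to 0.073. SNAP29, a broadly expressed SNARE of endosomes and autophagosomes, moved by only 0.33 ± 0.11 (adjusted p = 0.0397) and lost the call under 11 of 17 alternatives.

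Microglia and macrophage markers rose along with these genes in white matter after fWBI. T and NK cell markers overlapped between the groups in summed level, but not between fWBI and control in mean log2 CPM. The summed level of the 6 matched of 9 microglia and macrophage markers was 244 to 436 CPM in control, 428 to 574 CPM in TBI and 815 to 1229.7 CPM in fWBI white matter. That of the 5 matched of 9 T and NK cell markers was 2.38 to 11.0, 9.94 to 16.9 and 3.48 to 18.7 CPM. In mean log2 CPM this list was at -1.08 to -0.64 in control, -0.90 to 0.15 in TBI and -0.52 to 0.51 in fWBI white matter. All of these are low levels. The microglia and macrophage list was also higher after fWBI in grey matter. Its mean log2 CPM in prefrontal cortex was 4.06 to 4.36 in fWBI and 3.33 to 3.53 in control animals. In hippocampus it was 4.38 to 4.93 in fWBI and 3.49 to 4.18 in control animals. In both regions the treatments overlapped in STX11, STXBP2, VAMP8 and UNC13D, but at low levels, where a rise would be hard to see. The grey matter means were 1.01 CPM for STXBP2 and 2.15 CPM for VAMP8. STX11 failed the filter on low counts in both regions, and UNC13D failed it in prefrontal cortex. No marker of either list was at 0 throughout a group, and the part of such cells in the rises of STX11, STXBP2, VAMP8 and UNC13D was not tested. In these 4 genes fWBI animal 5 was the lowest of its group.

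**Figure D2:**
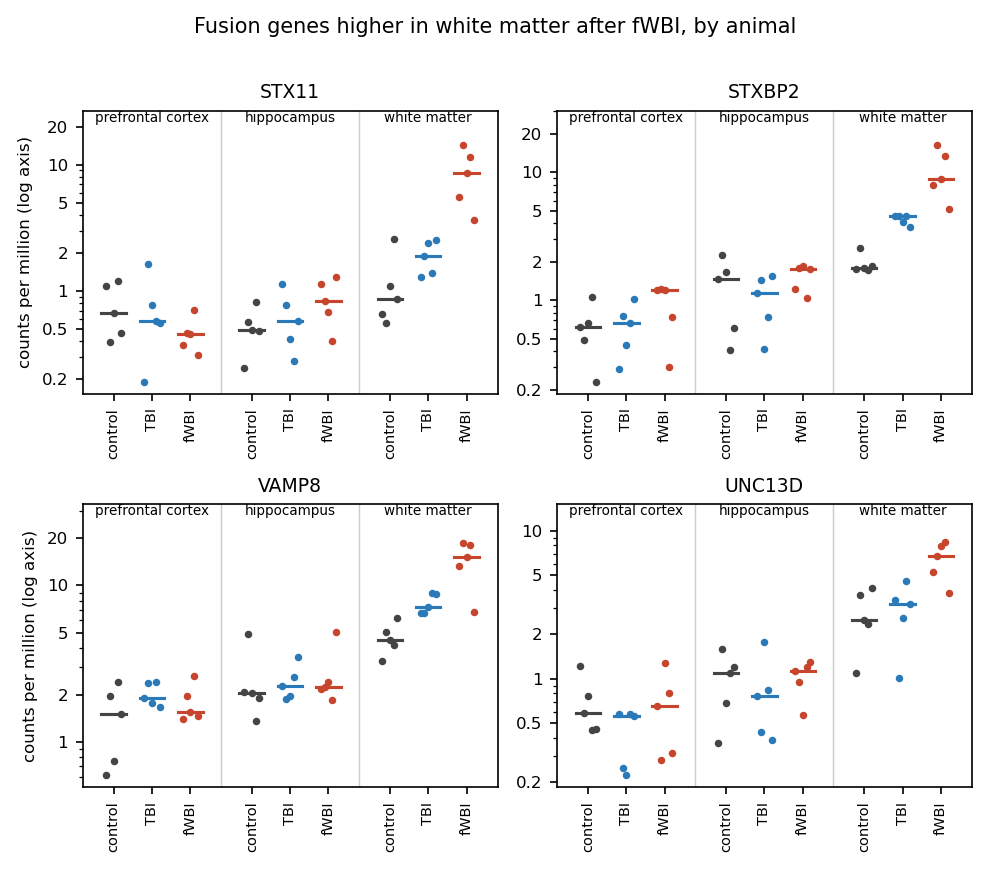
CPM (log axis) of STX11, STXBP2, VAMP8 and UNC13D in each animal of the 9 groups of treatment and region; points are animals and bars are group medians. In white matter the fWBI median is the highest in each gene (STX11 at 3.64 to 14.4 CPM). In hippocampus and prefrontal cortex the 3 treatments overlap, at low levels.

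Among the neuronal SNAREs and release regulators, 3 genes were called in white matter after fWBI with and without the 2 control libraries. RIMS1, a large active zone scaffold that binds RAB3 and calcium channels, was at 364, 176, 235, 196 and 259 CPM in control white matter and at 174, 163, 284, 171 and 209 CPM in TBI animals. In fWBI animals it was at 153, 52.3, 106, 112 and 125 CPM, below every control and TBI library. Its log2 fold change against control was -1.17 ± 0.26 (adjusted p = 0.00608), and -0.92 ± 0.27 (adjusted p = 0.04) without libraries 1 and 3. Against TBI it was -0.86 ± 0.26, which did not pass (adjusted p = 0.0568).

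RIMS2, its close relative, was at 247, 78.2, 171, 73.2 and 85.4 CPM in control, 74.6, 86.0, 98.5, 71.0 and 96.5 CPM in TBI, and 62.9, 29.3, 41.9, 51.6 and 55.5 CPM in fWBI white matter. All fWBI animals were below all others, and control animals 1 and 3 were the highest of the 15. Its log2 fold change was -1.45 ± 0.32 (adjusted p = 0.00534) with all control libraries and -0.69 ± 0.19 (adjusted p = 0.0289) without these 2. RIMS1 and RIMS2 kept the call under all 17 alternatives to the comparison of fWBI with control.

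UNC13B, a priming factor found in neurons and in several other tissues, was at 114, 94.4, 104, 102 and 99.7 CPM in control and at 76.9, 87.5, 69.4, 107 and 87.9 CPM in TBI white matter. In fWBI animals it was at 107, 204, 182, 158 and 355 CPM, and only animal 1 reached into the control range. Its log2 fold change was 0.97 ± 0.23 against control (adjusted p = 0.00948; 1.05 ± 0.29 and 0.0308 without control libraries 1 and 3) and 1.24 ± 0.24 against TBI (adjusted p = 0.00352). Unlike the granule genes, it was highest in fWBI animal 5, the animal with the least STX11, STXBP2, VAMP8 and UNC13D. The summed level of the 7 matched of 8 astrocyte markers was 6528 to 7491 CPM in control, 7617 to 8989.7 CPM in TBI and 7531 to 13952 CPM in fWBI white matter, with no marker at 0. Their mean log2 CPM was 9.11 to 9.33, 9.23 to 9.52 and 8.85 to 9.36, highest among fWBI animals in animal 5. In fWBI animals 1 to 4 it was 9.06, 8.85, 8.87 and 9.06, below every control library. The part of astrocytes in the rise of UNC13B was not tested. Its relative UNC13A, which primes vesicles at most excitatory synapses, was at 75.4, 5.67, 42.2, 9.82 and 6.59 CPM in control and at 3.65 to 7.85 CPM in fWBI white matter.

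The mean log2 CPM of 9 oligodendrocyte precursor markers was 4.90 to 5.56 in control, 5.11 to 5.36 in TBI and 2.67 to 3.52 in fWBI white matter, and the groups do not overlap for fWBI. In summed level this list ran from 435 to 637, 519 to 647 and 183 to 241 CPM, with no marker at 0. It moved with RIMS1 and RIMS2 in white matter, and its part in their falls was not tested. In grey matter RIMS1 and RIMS2 had means of 439 and 292 CPM over all groups, above every fWBI white matter library. Neither gene was called there. The list also fell after fWBI in both grey matter regions. Its mean log2 CPM in prefrontal cortex was 4.17 to 4.70 in control and 3.01 to 3.38 in fWBI animals. In hippocampus it was 4.46 to 5.00 in control and 3.52 to 3.76 in fWBI animals. The pan-neuronal markers of fWBI animals overlapped those of TBI animals and of control animals 2, 4 and 5.

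**Figure D3:**
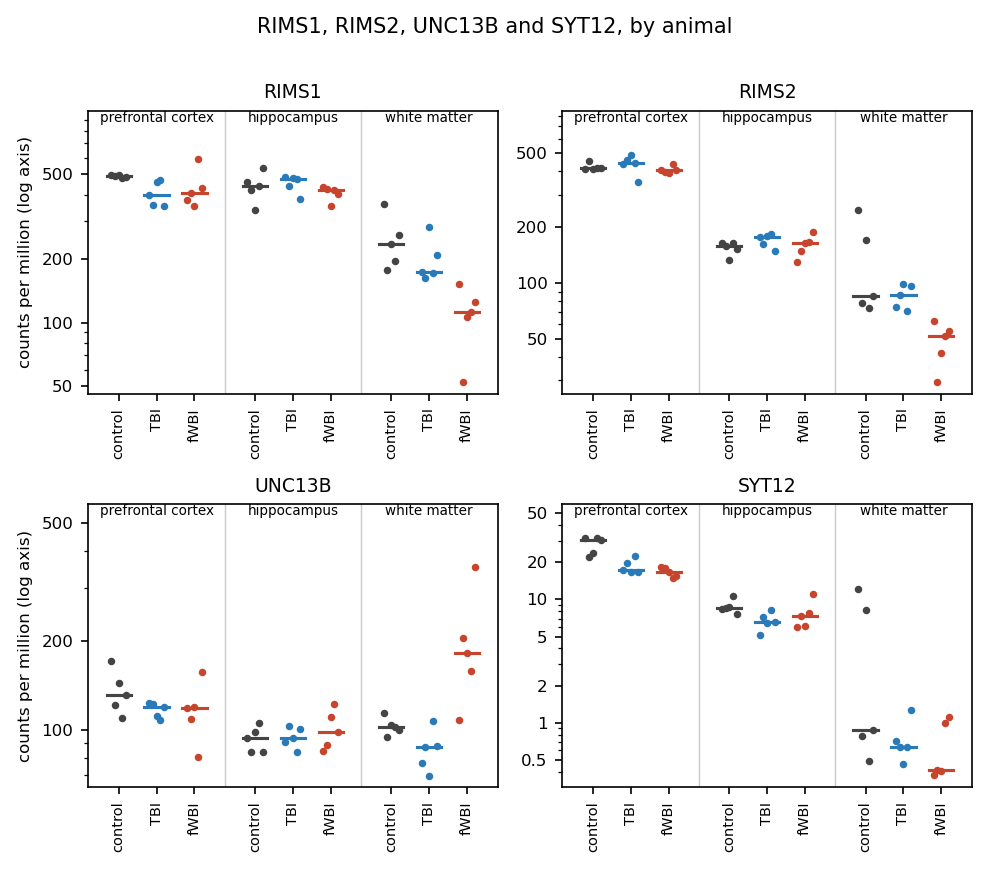
CPM (log axis) of RIMS1, RIMS2, UNC13B and SYT12 in each animal of the 9 groups; points are animals and bars are group medians. RIMS1 and RIMS2 are lowest in fWBI white matter (52.3 to 153 and 29.3 to 62.9 CPM), UNC13B reaches 355 CPM there, and SYT12 is highest in control prefrontal cortex.

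The other falls after fWBI in white matter rested on control libraries 1 and 3. Among vesicle membrane proteins, 6 of 13 tested fell, where 7.86% of all genes did; the largest falls among these were RAB3B, a GTPase of the vesicle surface (-2.43 ± 0.62, adjusted p = 0.0139), SV2A (-2.26 ± 0.64, adjusted p = 0.0251) and SYN1 (-2.19 ± 0.63, adjusted p = 0.0264). Among synaptotagmins, 4 of 13 fell, namely SYT2, SYT6, SYT13 and SYT7, by 2.42, 2.41, 2.30 and 2.22 on the log2 scale. CPLX1, the complexin that holds SNARE complexes before release, fell by 2.49 ± 0.65 (adjusted p = 0.0159). Its values were 34.7, 1.56, 16.4, 5.28 and 2.38 CPM in control and 1.95 to 2.68 CPM in fWBI animals, which overlap because of control animals 2 and 5. Without libraries 1 and 3 none of these genes passed, and the log2 values were -0.87 for RAB3B, -0.18 for SV2A, -0.19 for SYN1 and -0.47 for CPLX1. The adjusted p-values of CPLX1 and SV2A were then 0.469 and 0.797. SYN2 turned from -2.10 to 0.033.

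Whether SYN3 changed is further limited by the gene TIMP3, which lies within SYN3 on the other strand: the strand setting of the counting is not given in the sources used here. SYN3 fell by 1.03 ± 0.29 (adjusted p = 0.0231), and by 0.51 (adjusted p = 0.286) without libraries 1 and 3. SYP, synaptophysin, an abundant vesicle membrane protein, stood at 493, 67.0, 284, 90.5 and 60.6 CPM in control, 66.6 to 81.9 CPM in TBI and 46.8 to 93.8 CPM in fWBI white matter. Its fall of 1.56 ± 0.49 (adjusted p = 0.0398) came to 0.07 (adjusted p = 0.887) without these libraries. RIMS1 and SYN3 lay outside the rule for named genes in this comparison and were chosen after their values were seen.

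**Figure D4:**
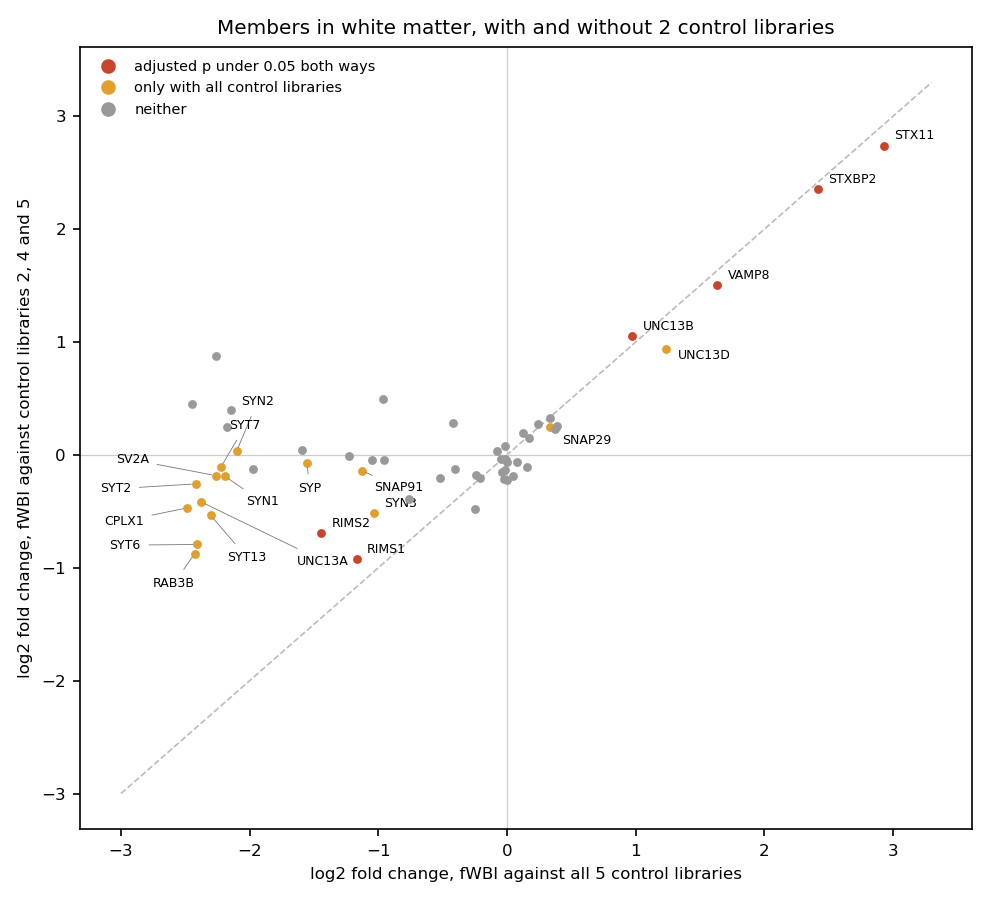
Log2 fold change of the tested members for fWBI against control in white matter, with all 5 control libraries (horizontal) and without control libraries 1 and 3 (vertical); the dashed line marks equal values. STX11, STXBP2, VAMP8, UNC13B, RIMS1 and RIMS2 keep their calls, while the neuronal members near -2 on the horizontal axis, such as CPLX1 (-2.49), lie nearer to 0 on the vertical axis (-0.47 for CPLX1).

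A list of 25 partner genes of transmitter release (active zone, calcium channel, vesicle transporter and endocytosis genes) was counted in the same way. Of 23 matched, none rose and 11 fell after fWBI in white matter with all control libraries, where 7.86% of all genes fell. Without libraries 1 and 3, 3 fell, against 3.54% of all genes. The largest falls with all control libraries were those of SLC17A7, a vesicular glutamate transporter (-2.57 ± 0.73), and DNM1, the dynamin of vesicle retrieval (-2.39 ± 0.75). CACNA1A, the pore of the P/Q-type calcium channel that RIM proteins hold at the release site, was one of the 3 that fell without them, at -1.55 ± 0.18 (adjusted p = 9.6e-05). RPH3A, a RAB3 effector, was another at -1.09 ± 0.25 (adjusted p = 0.00911). The partner list was chosen with earlier results of these data known, and its median log2 value moved from -1.58 to -0.08.

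Total body irradiation was compared with the same control libraries. No member was called in white matter by edgeR's quasi-likelihood test, against 0.0722% of all genes. An unadjusted p under 0.05 was found in 25 of 58, and DESeq2 called 17, of which 16 were lower. The shares of all genes by both measures are not given, here or below, so such counts are no result about the members. Without control libraries 1 and 3 edgeR again called none (0% of all genes), and 1 member had an unadjusted p under 0.05. The values of smallest p, given without a call, were 1.14 ± 0.28 for STXBP2 and -2.53 ± 0.64 for UNC13A, -2.60 ± 0.70 for SYT2 and -2.09 ± 0.59 for SYT6. Those of UNC13A, SYT2 and SYT6 were -0.58, -0.44 and -0.48 without libraries 1 and 3, while STXBP2 was at 1.07 ± 0.35 (adjusted p = 0.494). In 3 members, STXBP2, VAMP8 and SNAP23, all TBI animals lay above all control animals, against 2.63% of all genes without overlap in either direction.

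Set against TBI in white matter, fWBI raised 4 of 58 members and lowered none, where 7.33% of all genes were called and 4.8% were higher. They were STX11 (2.18 ± 0.41, adjusted p = 0.0036), STXBP2, UNC13B and VAMP8. This comparison does not use the control libraries. UNC13D was at 1.12 ± 0.37 and RIMS2 at -0.82 ± 0.31, without a call (adjusted p = 0.0809 and 0.149). The 13 tested vesicle membrane genes had a median log2 fold change of 0.00 here, and the 13 synaptotagmins one of -0.15.

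In prefrontal cortex, SYT12 was the only member called after fWBI, 1 of 58 tested against 1.15% of all genes. SYT12 codes for a synaptotagmin of synaptic vesicles that does not bind calcium in the usual way. It was at 31.7, 22.2, 24.0, 31.8 and 30.5 CPM in control animals, at 18.4, 18.0, 16.8, 14.8 and 15.6 CPM in fWBI animals and at 17.3, 19.9, 16.7, 22.3 and 16.8 CPM in TBI animals. All fWBI animals lay below all control animals, and only TBI animal 4 reached the lowest control value. The log2 fold change was -0.73 ± 0.13 for fWBI (adjusted p = 0.011, called under all 16 alternatives) and -0.58 ± 0.13 for TBI, which did not pass (adjusted p = 0.102); the comparisons share the control animals. In hippocampus it was at 7.69 to 10.7 CPM in control, 5.15 to 8.18 CPM in TBI and 6.03 to 11.0 CPM in fWBI animals, which overlap.

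Other members of smallest p in prefrontal cortex are given as values only. After fWBI these were SYT14 at 0.38 ± 0.10 (adjusted p = 0.0933), UNC13C at 0.38 ± 0.11 (adjusted p = 0.106), SYT6 at -0.65 ± 0.20 (adjusted p = 0.137) and SYNGR1 at -0.27 ± 0.09 (adjusted p = 0.174). After TBI edgeR called no member and 0% of all genes, with 9 members at an unadjusted p under 0.05 and 3 called by DESeq2. STX1A, the plasma membrane syntaxin of neurons, was at 144, 170, 198, 194 and 224 CPM in control and at 138, 113, 124, 153 and 100 CPM in TBI animals, which overlap (-0.55 ± 0.13, adjusted p = 0.117). Between fWBI and TBI no member passed in prefrontal cortex, where 2 had an unadjusted p under 0.05, DESeq2 called none and 0.29% of all genes were called.

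In hippocampus edgeR called no member in any of the 3 comparisons, with 2 of 58 at an unadjusted p under 0.05 in each and none by DESeq2. Of all genes, 0.723% were called for fWBI against control, 0% for TBI against control and 0.339% for fWBI against TBI. The smallest p-values for fWBI against control belonged to SYT5 (-0.23 ± 0.10), SYN2 (-0.45 ± 0.20) and UNC13A (-0.43 ± 0.20), with adjusted p of 0.419, 0.428 and 0.455. Over the 58 members the log2 fold change of fWBI against control ran from -0.60 to 0.51 there, and its median was -0.02. In prefrontal cortex it ran from -0.73 to 0.88 with a median of -0.07.

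The difference between the fWBI effect in white matter and that in prefrontal cortex was tested in a model of the 45 libraries that kept the animal as a block. It was called in 12 of 60 members, 4 higher and 8 lower, against 9.96% of all genes (4.56% higher, 5.4% lower). STX11 differed most, by 3.61 ± 0.62 (adjusted p = 0.000301): it was at 0.314 to 0.706 CPM in fWBI and 0.394 to 1.20 CPM in control prefrontal cortex. There it had only 24 and 32 counts over the 5 libraries, failed the filter on low counts within that region and entered this model through white matter, so the difference is set against a level near the floor. UNC13B differed by 1.11 ± 0.22 (adjusted p = 0.00157) and RIMS2 by -1.30 ± 0.29 (adjusted p = 0.00351). Without control libraries 1 and 3 these 3 remained among the calls, against 6.21% of all genes (3.52% higher, 2.69% lower), at 3.42 ± 0.72, 1.06 ± 0.26 and -0.67 ± 0.19. RIMS1 then missed the threshold (-0.74, adjusted p = 0.0811), as did STXBP2 (1.41, adjusted p = 0.225).

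The count of 12 was 5 without control animal 1, 20 without control animal 2, 4 without control animal 3 and 21 without control animal 5. It was 7, 7 and 5 without fWBI animals 1, 2 and 3. STX11, UNC13B and RIMS2 were called in each of these fits. For the fWBI effect in hippocampus against prefrontal cortex and for both TBI effects, edgeR called no member (0, 0.0301 and 0% of all genes for fWBI in hippocampus, TBI in white matter and TBI in hippocampus), with 2, 20 and 4 at an unadjusted p under 0.05. DESeq2 called 0, 1 and 0. For TBI in white matter without control libraries 1 and 3, edgeR called 0 as well (0.00589% of all genes), with 4 at an unadjusted p under 0.05, and the members' median was 0.08 in place of -0.24.

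White matter and prefrontal cortex differed in more members than the treatments did in any region, though only the region fits kept the animal as a block. Within TBI animals, whose white matter libraries were alike in neuronal markers, 52 of 59 members differed between white matter and prefrontal cortex, 16 higher and 36 lower. Of all genes 75.2% differed, 37.2% higher and 38% lower. In fWBI animals 53 of 60 differed, 18 higher and 35 lower, against 72.9% of all genes (35.6% higher, 37.3% lower). In control animals 48 of 59 differed, 13 higher and 35 lower, against 60.9% of all genes (29.5% higher, 31.4% lower). The counts were the same without libraries 1 and 3, against 62.6% (31% higher, 31.6% lower). In all 3 groups of animals the same 33 members were lower and the same 13 higher in white matter. The share of all genes called alike in all 3 groups was not counted, here or for hippocampus.

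Most of the lower members were genes of neuronal vesicles and their release. All 8 neuronal SNAREs and release regulators were lower in TBI animals, as were 11 of 13 vesicle membrane genes and 11 of 14 synaptotagmins. By the role lists used here, the other 6 were SNAP91 and 5 of 23 genes listed under general, endosomal or immune-cell fusion. These 5 were SNAP47, STX18, STXBP5, STXBP6 and VAMP4, named after their values were seen. The lists do not show that a gene has no part at synapses. SYT4, a synaptotagmin of dense-core vesicles, was at 844, 945, 971, 981 and 788 CPM in prefrontal cortex and at 22.1, 35.5, 19.2, 24.7 and 56.7 CPM in white matter of TBI animals, a log2 fold change of -4.89 ± 0.23 (adjusted p = 7.37e-11). SV2B followed at -4.80 ± 0.23, SYT12 at -4.61 ± 0.19 and CPLX1 at -4.33 ± 0.14. SYT12 failed the filter on low counts within white matter, so its value is set against a level near the floor. In control animals SYT4 was at -3.05 ± 0.92 with all libraries and at -5.19 ± 0.24 without libraries 1 and 3. The control calls of SYT4 and SV2B were lost without control animal 2, 4 or 5, at -2.41, -2.52 and -2.57 for SYT4 and -2.31, -2.54 and -2.42 for SV2B, with adjusted p from 0.0538 to 0.0647.

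The 13 members higher in white matter in all 3 groups were SNAP23, SNAP29, STX2, STX10, STX12, STXBP2, STXBP3, STXBP4, VAMP7, VAMP8, UNC13D, SYNGR2 and SYT9. Most serve fusion outside the synapse: SNAP23 is the broadly expressed relative of the neuronal SNAP, STXBP3 regulates a plasma membrane syntaxin in many cell types, and SYNGR2 is the synaptogyrin of non-neuronal cells. SYNGR2 was at 4.88, 6.25, 5.23, 5.30 and 8.61 CPM in prefrontal cortex and 48.1, 57.4, 57.8, 48.5 and 60.6 CPM in white matter of TBI animals, which is 3.19 ± 0.14 on the log2 scale (adjusted p = 2.6e-11). SYT9, a calcium sensor of neurons and endocrine cells, was the one synaptotagmin called higher in white matter, at 2.24 ± 0.11 in TBI, 2.16 ± 0.17 in fWBI and 2.26 ± 0.23 in control animals. Of the 13, UNC13D failed the filter on low counts within prefrontal cortex, so its contrast is set against a level near the floor.

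UNC13B, named here after its values were seen, lay on opposite sides in the treatment groups. It was lower in white matter than in prefrontal cortex of TBI animals (-0.44 ± 0.10, adjusted p = 0.000892) and higher in fWBI animals (0.71 ± 0.21, adjusted p = 0.008). In control animals it was at -0.37 ± 0.11 (adjusted p = 0.0125), and missed the threshold without control animal 3 (adjusted p = 0.062) and without white matter libraries 1 and 3 (adjusted p = 0.0603). The regional contrast of STX11 was positive in both irradiated groups, at 1.43 ± 0.40 in TBI and 4.12 ± 0.41 in fWBI animals. STX11 failed the filter on low counts within prefrontal cortex, so both values are set against a level near the floor.

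**Figure D5:**
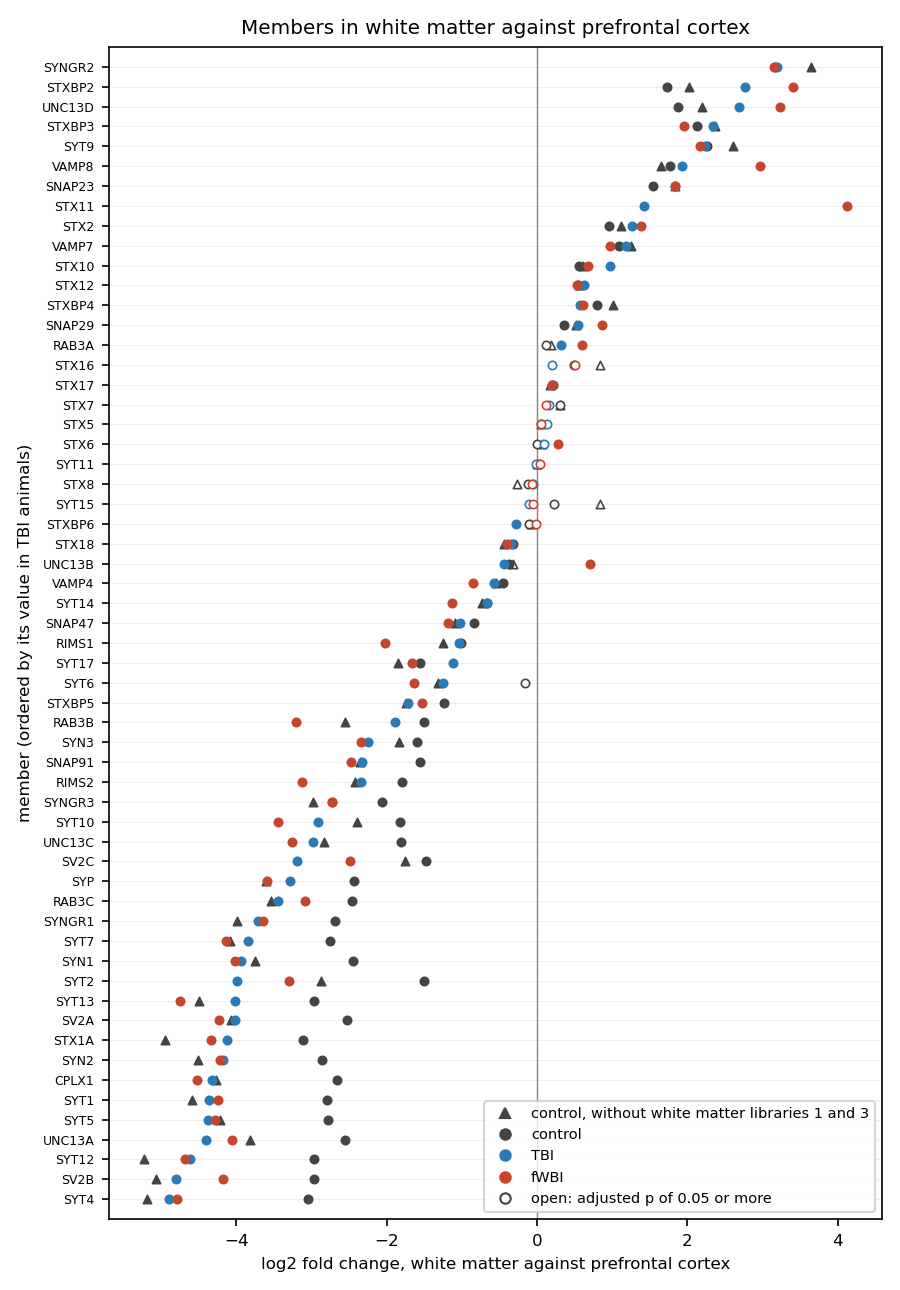
Log2 fold change of the tested members between white matter and prefrontal cortex, in control, TBI and fWBI animals and in control animals without white matter libraries 1 and 3; open symbols have an adjusted p of 0.05 or more. In TBI animals, whose values set the order, SYT4 (-4.89) is the lowest and SYNGR2 (3.19) the highest. UNC13B and STX11 of fWBI animals (0.71 and 4.12) lie to the right of the other groups. STX11 and UNC13D failed the filter on low counts within prefrontal cortex, and SYT12 failed it within white matter.

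Hippocampus and prefrontal cortex were closer. In TBI animals 21 of 59 members differed, 6 higher and 15 lower in hippocampus, against 36.9% of all genes (18.4% higher, 18.5% lower). In fWBI animals 18 of 60 differed, 4 higher and 14 lower, against 23.7% (12.3% higher, 11.4% lower). In control animals 10 of 59 differed, 4 higher and 6 lower, against 15% (7.68% higher, 7.29% lower). In all 3 groups CPLX1, RIMS2 and SYN3 were lower and RAB3A, STXBP3, STXBP4 and SYT9 higher in hippocampus. RIMS2 was the most even of these, at 413, 456, 414, 417 and 417 CPM in prefrontal cortex and 165, 160, 134, 164 and 154 CPM in hippocampus of control animals, without overlap (-1.45 ± 0.27, adjusted p = 0.00414; -1.35 ± 0.10 in TBI and -1.37 ± 0.15 in fWBI animals). RIMS1 had no such step, with 479 to 499 CPM in control prefrontal cortex and 340 to 534 CPM in control hippocampus. The count in control animals was 5, 3, 6 and 5 without control animals 2, 3, 4 and 5.

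Of the 61 members, 56 were tested for irradiation in all 3 regions. SYT8 was tested in none, with at most 3 counts in a library and 0 in 35 of 45. STX11 was tested in white matter only, SYNGR4 in prefrontal cortex only, SYT12 in hippocampus and prefrontal cortex, and UNC13D in white matter and hippocampus. In white matter SYT12 was at 12.3 and 8.17 CPM in control animals 1 and 3 and at most 1.27 CPM in the other 13 libraries.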

How the data were processed

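Total RNA of 45 libraries was sequenced after ribosomal RNA removal with a stranded kit, per the labels' protocols. The authors deposited the read count of every gene as an unscaled whole number, in 1 table for all libraries. FastQC, STAR and featureCounts, and DESeq2, appear in the submitters' processing notes with no version, and the sources used here do not give the build, annotation or strand setting. Symbols were matched to 15769 of 30246 IDs through a table of gene names, and no coordinates or sequences are given.

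Every test was fitted on all genes with edgeR 4.0.16 (R 4.3.3): TMM scaling, the default filter on low counts by group, and a robust quasi-likelihood test, with Benjamini-Hochberg adjustment within a comparison over all genes tested and a two-sided threshold of 0.05. Irradiation comparisons used the 15 libraries of a region, region comparisons the libraries of a treatment with animal as a block, and differences between regions all 45 libraries with that block. The block comes from the labels: libraries of the same animal deviated together (median r = 0.29 across genes over 45 pairs, 41 above 0.1). CPM values are counts scaled to the library size after TMM, and log2 CPM used a prior count of 2. The steps were tested on simulated counts.

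Genes were named by rule: up to 12 rises and 12 falls past the threshold in irradiation comparisons (the 5 smallest p-values where fewer than 5 passed), 8 each way between regions and 5 each way in differences. Of the members in the counts, 1 is not reported by name here. Members and lists were chosen with earlier results of these data known. Alternatives were DESeq2 (1.42.0), other scaling, no filter, other sets of libraries, a block on the replicate number, and fits without each animal in turn. The animals are separate within a group, and only 5 a group limit precision.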

Additional observations from a re-analysis of the deposited data

Results flagged for a closer look

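Per-animal values of 26 members in 9 groups of 5, 234 groups in all, were checked for an animal that stood apart by Dixon's test at a critical value of 0.71. Chance alone marks about 1 group in 20; 16 were marked. In white matter the animal apart was control animal 4 for STX11 (2.58 CPM, next 1.10), control animal 2 for STXBP2 (2.56 CPM, next 1.84), control animal 5 for SYT11 (295 CPM, the lowest), TBI animal 2 for SYT11 (429 CPM) and SYT6 (3.52 CPM), and fWBI animal 4 for CPLX1 (2.68 CPM). In prefrontal cortex it was control animal 1 for SYNGR2 (8.08 CPM, the highest) and SYP (580.4 CPM, the lowest), control animal 2 for RIMS2 (456 CPM), TBI animal 4 for SYT13 (117 CPM, the lowest), TBI animal 5 for SYT2 (49.0 CPM, next 20.3) and fWBI animal 4 for RAB3A (11.7 CPM, the lowest). In hippocampus it was control animal 2 for SYP (825 CPM) and VAMP8 (4.87 CPM), control animal 4 for RAB3B (2.72 CPM) and fWBI animal 5 for VAMP8 (5.00 CPM). Control animals 1 and 3 in white matter are not marked, since 2 high libraries leave no single gap.

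The effect of fWBI differed between white matter and prefrontal cortex, by the test of the difference itself, in 12 members. The log2 differences were 3.61 for STX11, 1.70 for STXBP2, 1.11 for UNC13B and 0.53 for SNAP29, and -1.88 for CPLX1, -1.82 for SYT2, -1.79 for SYT13, -1.72 for SV2A, -1.69 for RAB3B, -1.43 for UNC13C, -1.30 for RIMS2 and -0.97 for RIMS1. Those of STX11, UNC13B and RIMS2 alone passed without control white matter libraries 1 and 3.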

How the results depend on the processing

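Of 269 counts of called members under alternatives, 241 lay within 1.5 times the reported count. For fWBI against control in white matter (22), the count was 31 by DESeq2 (7 higher, 24 lower) and 8 with only these 2 groups in the fit. It was 9 with the replicate number as a block and 6 without control libraries 1 and 3. It ran from 8 to 33 when each animal was left out. DESeq2 called 17 members for TBI against control in white matter, 3 for fWBI and 3 for TBI in prefrontal cortex, and 1 for the TBI difference between white matter and prefrontal cortex (0 to 1 with animals left out). For the fWBI difference between these regions (12), the count was 6 with no filter on low counts, 24 with no animal block, 3 without the 2 control libraries, and 4 to 21 with animals left out. For hippocampus against prefrontal cortex in control animals (10) it was 3 to 10. SYN2 reversed in fWBI white matter without these libraries, to 0.033 (adjusted p = 0.977). The replicate number does not pair animals of different treatments (median r = 0.01 over 45 pairs), and the block on it moved no other count by more than 1.5 times. The cause of these shifts was not tested, beyond the neuronal markers of control libraries 1 and 3. Depth limits STX11 and UNC13D in grey matter, where no library exceeded 1.62 and 1.77 CPM. It also limits STXBP2, at a mean of 1.01 CPM there.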

Other observations

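Some neuronal members varied together between animals of a group in grey matter. SYN1, SYT7 and UNC13A, and the Golgi syntaxin STX16, were all lowest in control animal 2 and all highest in control animal 1 in prefrontal cortex. SYN1 was at 64.3 and 284 CPM in these 2 libraries, SYT7 at 60.2 and 247 CPM, UNC13A at 80.4 and 209 CPM and STX16 at 18.4 and 88.3 CPM. SYT1 and SYP did not follow: control animal 1 had the lowest SYP of its group, at 580.4 CPM, where animal 2 had 977 CPM. In hippocampus control animal 2 was again the lowest of its group for all 4 genes, and TBI animal 4 was the lowest for all 4 in prefrontal cortex of TBI animals. The sharing was less full elsewhere: animal 4 was the lowest for 3 of 4 in TBI hippocampus and for 3 of 4 in fWBI prefrontal cortex, and in fWBI hippocampus 2 of 4 shared the lowest animal. These genes were chosen after their values were seen, no test was made, and a cause was not tested. Over 58 members with a mean of at least 1 CPM the median of the mean SD within groups was 0.21 log2 units, and that of SYN1 was 0.66.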
